A study of Mus musculus with 6 samples.

Results

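The genes described here are translation initiation and elongation factors, chosen as the rows of the deposited gene table whose symbol starts with Eif or Eef and a digit, which lie on an autosome and which the authors' software marked as tested. The RNA helicase cofactor Eif4b and the eIF2 alpha kinases (Eif2ak) were left out. Of 64 rows with such a symbol, 52 were members, out of 11079 tested rows and 24312 rows in all. Of the others, 4 were Eif2ak genes, 1 was Eif4b, 3 lay on sex chromosomes and 4 were not tested. All 52 were tested by this definition, and the 4 untested rows are given by their levels, Eef1a2 beside Eef1a1 and the other 3 among the closing values.

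Translation initiation factors (eIFs) bring the small ribosomal subunit and the initiator tRNA to the start codon of an mRNA, and elongation factors (eEFs) then feed aminoacyl-tRNAs to the ribosome and move it along. Many of these factors, like the ribosomal proteins, are encoded by mRNAs that begin with a C and a run of further pyrimidines (TOP mRNAs), a class whose translation follows mTORC1 signalling. Pim kinases are known to act on the same machinery, among other ways by phosphorylating eIF4B.

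The cells were myeloid-derived suppressor cells (MDSCs), immature myeloid cells that restrain T cells, cultured out of mouse femur marrow over 7 days in GM-CSF and IL-6, each cytokine at 40 ng/mL. There were 3 libraries from wild-type (WT) C57BL/6 mice and 3 from Pim1-/- mice, for which the labels also give the strain C57BL/6. Both groups were cultured alike, carried no other named allele, and were labelled CD11b+ Gr1+. The labels do not give the sex or age of the mice, how the Pim1-/- allele was made, or whether cells were sorted on those antigens. The RNA was sequenced after Smart-seq2, a method that makes full-length cDNA of polyadenylated transcripts.

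The authors' deposited table holds 1 pooled value per gene and genotype, read here as FPKM (fragments per kilobase of transcript, scaled to library size), which is a level per length. No spread between libraries can therefore be given, depth is unknown, and calls are the authors' own, made at a q-value (q, the p adjusted over all tested genes) under 0.05. Dividing a log2 fold change by its deposited test statistic gave the error printed with it. The authors' p-values correspond to errors narrower than this by a median factor of 1.74. Pim1 itself was at 90.2 in wild type and 22.7 in Pim1 knockout, a log2 fold change of -1.99 (error 0.25; q = 0.000831 in the authors' deposited table). The labelled antigen CD11b (Itgam) was at 138.8 and 151.8, and Gr1 is represented by Ly6c2, at 392.4 and 997.1, and Ly6c1, at 5.74 and 15.4, since Ly6g was not analysed here. Of 11 neutrophil markers, not separated by stage of maturation, 8 were called higher. The summed level of the 11 was 2525 in wild type and 9426 in knockout. Most of that sum was S100a8 (1308 and 6257) and S100a9 (369.3 and 2029), and the other 9 markers, of which 6 were called higher, summed to 847.5 and 1140.1. Most of the sum of these 9 was Mmp8 (735.1 and 767.9), which was not called, while Lcn2, called higher, was at 51.6 and 249.8. The other uncalled markers were Cxcr2 (3.29 and 3.41) and Retnlg (4.12 and 3.19). Of 8 monocyte markers 4 were called higher and 1, Fn1, lower (386.0 and 147.3), with sums of 1233 and 1648. Ly6c2, given above for Gr1, is among these 8, and its rise was larger than that of the sum. Of 7 macrophage markers 0 were called in the authors' deposited table (1 lower and 1 higher at an unadjusted p under 0.05), with sums of 3870 and 4456. Of 7 dendritic cell markers 4 were tested, of which 1 was called higher and 2 lower, with sums of 3211 and 2446. Of T cell markers, Cd3e was at 0.0118 and 0.0623 and Cd3g at 0.10002 and 0.0576, and neither was tested. The Y-linked eIF2 gamma subunit gene Eif2s3y, which is not a member, was at 6.79 in wild type and 0.0191 in knockout. Xist, which is transcribed in female cells, was at 5.21 and 7.21, so the wild-type pool held both kinds of transcript. Pooled values do not give the sex of each library. A difference in the mix of sexes between the groups cannot be told apart from the genotype. The part of these differences in the results below was not tested. In bulk RNA, fewer cells of a type and less RNA per cell cannot be told apart.

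The members that fell in the knockout are shown first by sequence, because all of them are on a list of 8 factors known from TOP mRNAs. Each line gives 24 bases around the longest run of C or T within the first 100 bases of 1 annotated transcript (GENCODE M21, GRCm38), read 5′ to 3′ on the transcript's strand, with that run in capitals. The first 5 genes were called lower, and the last 3 are the uncalled genes of the list.
Eef1a1, chr9:78481658-78481681, minus strand: cttggacgTTCTTTTTCgcaacgg
Eef1b2, chr1:63176886-63176909, plus strand: agagggcgTTTCCCTTCgtttcgg
Eef2, chr10:81176637-81176660, plus strand: gtcagcggTCTCTTCCgccgcagc
Eif3e, chr15:43282693-43282716, minus strand: caagcgCTCCTTTCCCCCggcaag
Eif3f, chr7:108934417-108934440, plus strand: CTCTTTCTCggcaagatggcttct
Eif3h, chr15:51865468-51865491, minus strand: tcacgCTTCTCTTTCTTCCTgtct
Eef1g, chr19:8967117-8967140, plus strand: ttccacactgCTCTCTCCTTTCCT
Eef1d, chr15:75909294-75909317, minus strand: gggcgCCCTCCCTCTCCTTTgcag

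The run began at the first base of the annotated transcript only in Eif3f, where it was 9 bases long and stood just before the start codon. In Eef1a1 it also had 9 bases but began at base 52, and in Eef2 it had 8 bases and began at base 15. Annotated starts need not be the starts used in these cells, and the run of Eef1g reached the end of the 100 bases searched. A run of at least 7 consecutive C or T bases on the transcript's strand was present in 8 of the 8 listed factors, in 30 of the 52 members (57.7%) and in 42.3% of 10185 tested genes with a matched transcript. The uncalled Eif3h, Eef1g and Eef1d held such a run too. The 8 were listed as TOP mRNA factors, so runs in all of them are no separate result. A run was counted anywhere in the first 100 bases, which is wider than a run at the transcript start.

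Of the 52 members, 5 fell and 0 rose in Pim1 knockout: the elongation factor genes Eef1a1, Eef1b2 and Eef2 and the eIF3 subunit genes Eif3e and Eif3f. The share of members called was 9.62%, all of them lower, while among the authors' calls 6.73% of all tested genes were called lower, 6.79% higher and 13.5% in either direction. In either direction the members' share lay under that of all genes, and in the lower direction it was near it. Their median log2 fold change was 0.00, against 0.01 for all tested genes, with 27 members above 0 and 25 below. At an unadjusted p under 0.05, 11 members were lower and 4 higher, where 12.1% of all tested genes were lower and 12% higher. Taking the deposited statistic for a normal deviate left 0 members called, while 1.47% of all tested genes were called lower and 1.85% higher. No member lay on chromosome 17, which carries Pim1.

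**Figure D1:**
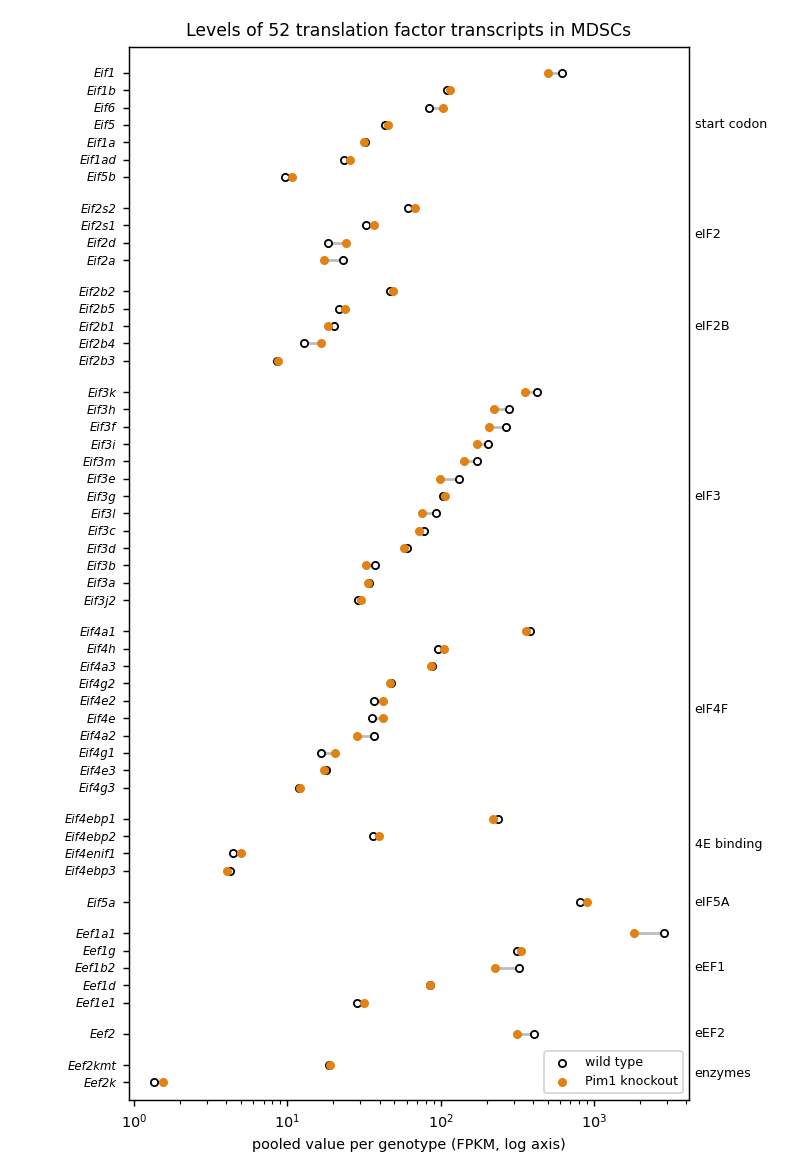
Pooled FPKM of each of the 52 genes (log axis) in wild type (open circles) and Pim1 knockout (filled circles), joined by a line and grouped by role. Eef1a1 stands at 2857 and 1840, above every other gene shown, and Eef2k is the lowest at 1.36 and 1.55.

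Elongation begins with eEF1A, the GTPase that carries aminoacyl-tRNA to the ribosome. Eef1a1 was the most abundant of all members, and it fell from 2857 in wild type to 1840 in knockout. This was 1.55-fold, a log2 fold change of -0.63 (error 0.27; q = 0.000831 in the authors' deposited table). That q is the smallest there, goes with the smallest p-value of the authors' test (5e-05), and is shared by other genes, Pim1 among them. With the statistic taken for a normal deviate, the q of Eef1a1 was 0.274. In the coordinates of that table the gene lies on chromosome 9 from 78326261 to 78329531. The paralogue Eef1a2, whose product takes the same place mainly in muscle and neurons, was not tested and stood at 0.0301 in wild type and 0 in knockout. Eef1a1 has many processed pseudogenes, so its level is uncertain to the extent that reads were shared with them.

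The eEF1B complex recharges eEF1A with GTP, and its subunit genes differed in their values. Eef1b2, which encodes a subunit with exchange activity (chromosome 1, 63223405 to 63227060 in the same coordinates), fell from 324.7 to 225.3. Its log2 fold change was -0.53 with an error of 0.23 (q = 0.00156 in the authors' deposited table), and its locus is shared with another row. Eef1g, the structural gamma subunit, was at 313.4 and 333.9 (log2 fold change 0.09, error 0.23, q = 0.765 in the authors' deposited table). Eef1d, which encodes the other exchange subunit, was at 85.5 and 86.0 (log2 fold change 0.01, error 0.24). The level of Eef1b2 per level of Eef1g was thus 1.04 in wild type and 0.675 in knockout, a ratio for which no test was possible. Eef1e1, which is part of the multi-synthetase complex, was at 28.6 and 31.8.

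Eef2 encodes the GTPase that moves the ribosome to the next codon. It fell from 408.0 to 313.3, or 1.30-fold, with a log2 fold change of -0.38 (error 0.24; chromosome 10, 80639376 to 80645254, q = 0.0420 in the authors' deposited table). The locus of Eef2 is shared with another row. Its kinase Eef2k, which blocks eEF2, was the least abundant member at 1.36 and 1.55 (log2 fold change 0.19, error 0.33). Eef2kmt, a methyltransferase for eEF2, was at 18.7 and 18.9. The 5 eEF1 genes summed to 3609 in wild type and 2517 in knockout, mostly Eef1a1. Eif5a, which encodes the hypusine-bearing factor that relieves stalled ribosomes, was the second most abundant member and had the opposite sign. It stood at 807.6 and 906.5, a log2 fold change of 0.17 (error 0.24; q = 0.515 in the authors' deposited table).

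The eIF3 complex is the scaffold that holds the small ribosomal subunit ready for mRNA. Of all 11079 tested genes, 5310 had a fold change below 0 as deposited and 6.73% were called lower. Of its 13 measured subunit genes, 11 had a fold change below 0 (9 of 13 after scaling both genotypes to the same sum). Of these, 2 were called. Eif3e fell from 131.6 to 99.7 (log2 fold change -0.40, error 0.23, q = 0.0278) and Eif3f fell from 267.3 to 207.7 (log2 fold change -0.36, error 0.23, q = 0.0408) in the authors' deposited table. Eif3e lies on chromosome 15 from 43081586 to 43114282 and Eif3f on chromosome 7 from 116077929 to 116085456 in the coordinates of that table. Eif3h, at 279.7 and 222.7, was the nearest uncalled subunit (log2 fold change -0.33, error 0.23, q = 0.0818 in the authors' deposited table). Each of these log2 fold changes was 1.43 to 1.71 times its error.

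By position in the complex, the 8 subunits of the core built from PCI and MPN domains (a, c, e, f, h, k, l and m) all had a fold change below 0 (7 of 8 after scaling both genotypes to the same sum), with a median log2 fold change of -0.29. Within it, Eif3l (93.3 and 75.9), Eif3k (429.0 and 353.2) and Eif3m (173.4 and 142.7) lay between -0.30 and -0.28 and were not called. Eif3a, the largest subunit, stood at 34.1 and 33.6 and Eif3c at 78.0 and 72.1, so these core genes were close to 0. The other 5 measured subunits had a median of -0.06. They were Eif3i (204.2 and 174.1), Eif3b (37.6 and 32.6), Eif3d (60.0 and 57.7), Eif3g (103.7 and 106.3) and Eif3j2 (29.1 and 30.3). This division was made after the values were seen and was given no test. Although the subunits join in 1 complex, their FPKM in wild type spanned 14.7-fold, from Eif3j2 to Eif3k. The row Eif3j2 carries a chromosome 2 locus that it shares with a row naming both Eif3j1 and Eif3j2, so its value cannot be assigned to either copy.

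**Figure D2:**
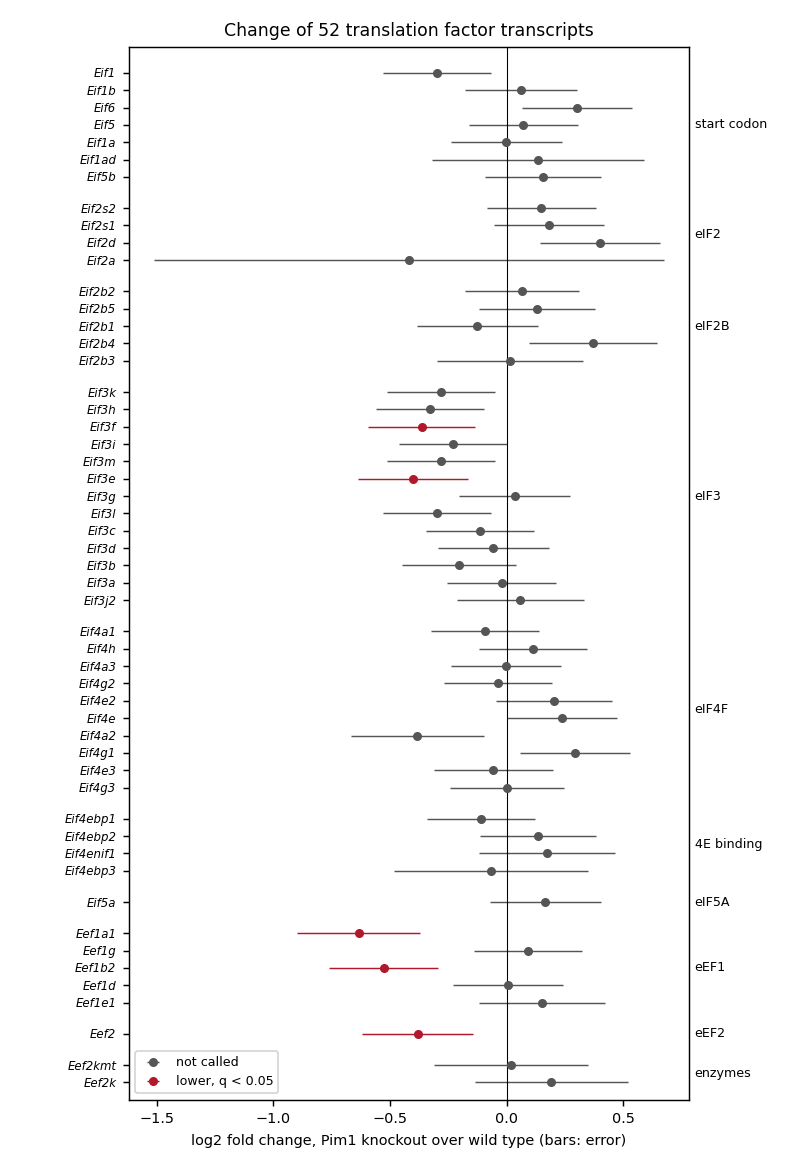
Log2 fold change (Pim1 knockout over wild type) of the 52 genes by role, with bars of 1 error on each side. The 5 genes called lower (red) are Eif3e, Eif3f, Eef1a1, Eef1b2 and Eef2, and 11 of 13 eIF3 genes lie left of 0 (9 after scaling both genotypes to the same sum).

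The cap-binding complex eIF4F recruits mRNA. Of 10 measured genes for cap binding and helicases, which hold those of eIF4F with their paralogues and the cofactor Eif4h, 0 were called in the authors' deposited table (1 lower and 1 higher at an unadjusted p under 0.05, and 0 with the statistic taken for a normal deviate). Eif4e, which binds the cap, was at 35.8 and 42.2 (log2 fold change 0.24, error 0.24). Eif4g1, the scaffold, was at 16.6 and 20.4, a log2 fold change of 0.29 (error 0.24; q = 0.147 in the authors' deposited table). Of the helicase genes, Eif4a1 was at 385.3 and 361.3 and made up 91.3% of the summed Eif4a1 and Eif4a2 level in wild type and 92.7% in knockout. Eif4a2 was at 36.9 and 28.3 (log2 fold change -0.38, error 0.28, q = 0.116 in the authors' deposited table). Eif4a3, whose product works in the exon junction complex and not in eIF4F, was at 87.5 and 87.3. The helicase cofactor Eif4h was at 97.0 and 105.0.

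Several cap-binding genes have paralogues, and most of these were unequal in level. Eif4e2, which encodes a repressive cap-binding relative, was close to Eif4e in level at 36.9 and 42.4, and Eif4e3 was less abundant at 18.02 and 17.3. Eif4g2, an eIF4G relative without the eIF4E binding site, held 62.5% of the summed Eif4g level in wild type and 58.9% in knockout, at 47.7 and 46.5. Eif4g3 was at 12.0 in both genotypes. Among the eIF4E-binding proteins, which mTORC1 phosphorylates to free eIF4E, Eif4ebp1 held 85.3% and 83.3% of the summed level of the 3 genes. It stood at 235.9 and 218.8, a log2 fold change of -0.11 (error 0.23; q = 0.704 in the authors' deposited table). Eif4ebp2 was at 36.3 and 39.9, Eif4ebp3 at 4.26 and 4.06, and the eIF4E transporter gene Eif4enif1 at 4.43 and 4.99. The level of Eif4ebp1 per level of Eif4e was 6.58 in wild type and 5.19 in knockout.

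The initiator tRNA is brought by eIF2, whose alpha and beta subunit genes are Eif2s1 and Eif2s2. They were at 32.6 and 37.0 and at 61.5 and 68.2, both with log2 fold changes of 0.15 to 0.18 and errors of 0.23 to 0.24. Eif2d, which can deliver tRNA without eIF2, was the uncalled member nearest to the threshold on the higher side. It stood at 18.4 and 24.2, a log2 fold change of 0.40 (error 0.26; q = 0.0540 in the authors' deposited table). Eif2a, another alternative tRNA carrier, had the lowest fold change of the uncalled members, at 23.1 and 17.3 (log2 -0.42). Its error of 1.09 was the widest of all members, and its locus is shared with another row. Of the 5 subunits of eIF2B, which reloads eIF2 with GTP, 4 had a fold change above 0 and 0 were called in the authors' deposited table (1 higher at an unadjusted p under 0.05). Eif2b4 was at 12.9 and 16.7 (log2 fold change 0.37, error 0.27), Eif2b5, the catalytic subunit, at 21.7 and 23.8, and Eif2b2 at 46.6 and 48.8. Eif2b3 was at 8.64 and 8.74, and Eif2b1 at 20.2 and 18.5.

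Under start codon selection and subunit joining 7 genes were grouped here, which need not all act in these steps. They held no called gene in the authors' deposited table (1 lower and 1 higher at an unadjusted p under 0.05). Eif1, which guards against wrong start codons, was the third most abundant member at 619.6 and 504.3 (log2 fold change -0.30, error 0.23, q = 0.132 in the authors' deposited table). Its near relative Eif1b was at 109.9 and 114.9. Eif6, which keeps the large ribosomal subunit apart from the small one, had a log2 fold change of 0.30 (error 0.24), at 84.2 and 103.7 (q = 0.133 in the authors' deposited table). Eif5, which activates GTP hydrolysis by eIF2, was at 43.2 and 45.4, and Eif5b, the GTPase of subunit joining, at 9.65 and 10.8. Eif1a was at 31.9 in both genotypes, and Eif1ad at 23.4 and 25.7 with an error of 0.46 on the log2 scale.

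Within the family, the more abundant transcripts tended to have the lower fold changes, with exceptions. Eif5a, Eef1g, Eif1b, Eif3g and Eif4h had means of at least 100 and fold changes above 0. Of 17 members with a mean of both values of at least 100, 12 had a fold change below 0 and 5 were called lower, while 12.3% of all tested genes at that level were called lower. The share of all genes at that level with a fold change below 0 was not counted. Of the 35 members under 100, 13 had a fold change below 0 and 0 were called in the authors' deposited table. Across the 52 genes, Spearman's rho between the mean level and the log2 fold change was -0.45, and across 10185 tested genes with a matched transcript it was 0.03. Among the 44 members outside the list of TOP mRNA factors it was -0.31. The fold change also went with the length of the matched transcript, with a rho of 0.40 over the 52 members and -0.05 over all matched genes, so shorter members had lower values. These points share libraries and normalization, so the coefficients are descriptions and have no p-value, and level and length were not separated.

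**Figure D3:**
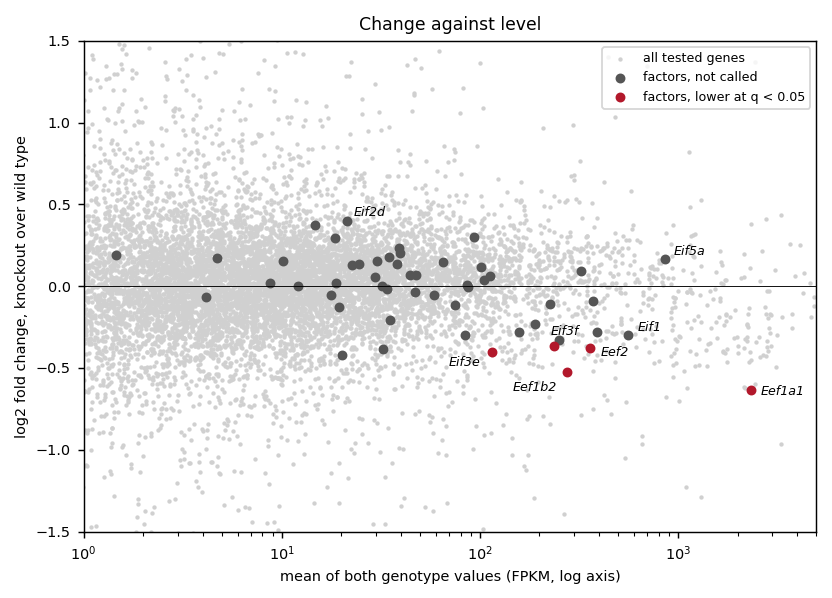
Mean of both genotype values (FPKM, log axis) against log2 fold change for the 52 factor genes (large points, red where called lower) over all tested genes (small points; 1260 genes beyond the axes are not drawn). All 5 called genes lie at mean levels of at least 100.

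Of the 8 listed TOP mRNA factors, 5 fell and 0 rose, with a median log2 fold change of -0.37, where 6.73% of all tested genes, and 12.3% of those with a mean of at least 100, were called lower. With the statistic taken for a normal deviate, 0 of the 8 were called, and at an unadjusted p under 0.05 there were 6 lower and 0 higher. Of the other 44 members, 0 were called in the authors' deposited table (5 lower and 4 higher at an unadjusted p under 0.05, and 0 with the statistic taken for a normal deviate), with a median of 0.03. The list was written with the fall of ribosomal protein genes in these data known, so it is no independent evidence of a direction, and no list test was made. The summed level of the 8 was 4667 in wild type and 3328 in knockout, mostly that of Eef1a1, and that of the other 44 was 4321 and 4168. Other genes with TOP mRNAs, such as those of ribosomal proteins, were not counted here. The next pair are examples outside the members, both called lower, and are no measure of such genes as a class. Eif4b, which lies outside the rule, fell from 68.0 to 46.2 (log2 fold change -0.56, error 0.23, q = 0.000831), and the poly(A) binding protein gene Pabpc1 fell from 183.6 to 138.6 (log2 fold change -0.41, error 0.23, q = 0.0199), both in the authors' deposited table.

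Other genes of translation control were read from 6 lists with 71 tested genes, of which 6 rose and 2 fell, against 6.79% of all tested genes called higher and 6.73% lower. Of these, 4 had a mean of at least 10, and taking the statistic for a normal deviate left 1 called, Eif2ak2. The pair that fell was Pabpc1 and Paip2, whose product restrains poly(A) binding protein (116.7 to 88.1, log2 fold change -0.40, error 0.24, q = 0.0248 in the authors' deposited table). In the list of mTORC1 and MNK signalling 0 of 14 genes were called in the authors' deposited table (1 higher at an unadjusted p under 0.05). Mtor stood at 2.38 and 2.58 (log2 fold change 0.12, error 0.28), and Larp1, whose product binds TOP mRNAs, at 3.54 and 4.47 (log2 fold change 0.34, error 0.27, q = 0.157 in the authors' deposited table). Pdcd4, an inhibitor of eIF4A, was at 4.03 and 2.17 with an error of 0.95 on its log2 fold change of -0.89.

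In the list of eIF2 alpha kinases and the integrated stress response, 4 of 14 genes rose and 0 fell. For these counts and those below, 6.79% of all tested genes were called higher. With the statistic taken for a normal deviate, only Eif2ak2 of the genes in the lists below stayed called. The kinase Eif2ak2 (PKR), which interferon also induces, rose from 3.99 to 7.41 (log2 fold change 0.89, error 0.28, q = 0.000831 in the authors' deposited table). Of 6 targets of the transcription factor ATF4 on the list, 3 rose: Sesn2 (6.46 to 10.1), Trib3 (2.81 to 5.29) and Asns (5.24 to 10.0), all with q = 0.000831 in the authors' deposited table. The other 3 were not called there: Ddit3 was at 18.8 and 25.5 (q = 0.454), Chac1 at 0.386 and 0.744 (q = 0.139), and Ppp1r15a at 9.45 and 7.69 (q = 0.815). Atf4 itself, which is largely controlled in translation, was at 123.4 and 133.9 (q = 0.675 in the authors' deposited table). Among 22 genes for aminoacyl-tRNA synthetases and their scaffold proteins, 2 rose, Vars (9.87 to 14.3, log2 fold change 0.54, error 0.25, q = 0.00156) and Tars (15.2 to 20.4, log2 fold change 0.43, error 0.25, q = 0.0366) in the authors' deposited table. Their median log2 fold change was 0.13. Vars lies on chromosome 17 from 35137852 to 35153274 in the coordinates of that table, within 10 Mb of Pim1 (29627990 to 29632404). Eif2ak2 lies on the same chromosome but farther off (79251890 to 79281912). The uncalled Mlst8 and Tsc2 of the mTORC1 list lie within 10 Mb of Pim1 as well. The part of the neighbourhood of Pim1 in these values was not tested. Of 6 termination and recycling genes and 9 genes for the hypusine and diphthamide modifications of eIF5A and eEF2, 0 were called in the authors' deposited table. At an unadjusted p under 0.05 the first list had 0 genes and the second had 2 higher.

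**Figure D4:**
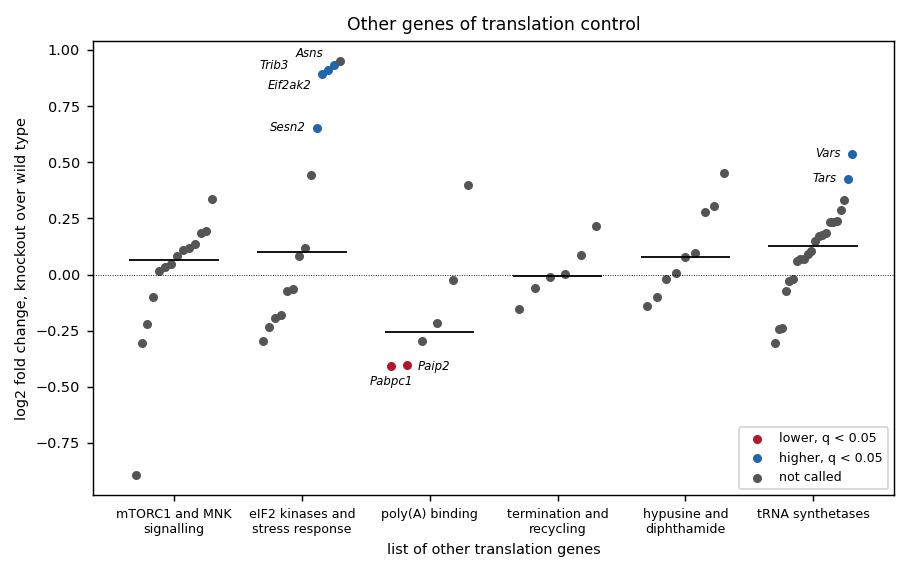
Log2 fold change (Pim1 knockout over wild type) of the tested genes of 6 other lists of translation control, 1 point per gene, with the median of each list as a bar. Called genes are named: Pabpc1 and Paip2 lie below 0, and Eif2ak2, Trib3, Asns, Sesn2, Vars and Tars above it.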

How the data were processed

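Per the labels, RNA of 6 libraries (3 per genotype) was sequenced. The submitters' processing notes name mm10; the aligner, the counting and the scaling of libraries to each other are not stated there or in the labels. The table's columns are laid out as in a Cuffdiff gene comparison, so the deposited values were read as FPKM, although the header names no unit. A test statistic (a score), a p-value and a q-value stand beside them, per the file headers. Adjusting the deposited p-values by Benjamini-Hochberg over 11079 tested rows gave the deposited q-values within 5.28e-07. Log2 fold changes were computed here from the deposited values.

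The 6 libraries were pooled by the authors to 1 value per genotype, so the planned limma fit, a replicate check and an interval were not possible. The design text calls the libraries biological replicates. Loci are those of the table, with starts counted from 1. Only 6 of 52 member loci overlapped their gene in GRCm38, with 51 on the right chromosome, and the build of the loci is therefore unknown, while the printed sequences are GENCODE M21 on GRCm38. One transcript per gene was used, the lowest-numbered protein-coding one. Of the member loci, 15 were shared with other rows of the table, among them those of the called Eef1b2 and Eef2. Whether counting used strand is not given, so the values of these 15 are uncertain.

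Members and lists were chosen with earlier results of these data known. Named were all called members, the most abundant and the most changed in each role, called pathway genes, and Mtor, Atf4, Pabpc1, Larp1 and Pim1. Every other member is given by its levels. Pdcd4, the uncalled ATF4 targets and marker genes were named after their values were seen, and part of 1 marker list is not reported here. Alternatives were other thresholds, filters, pseudocounts, scalings and taking the test statistic for a normal deviate, adjusted over 11049 rows with a finite statistic. The adjustment was tested on simulated data. Python 3.11.15, pandas 2.3.3, numpy 2.4.6, scipy 1.17.1 and matplotlib 3.10.9 were used.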

Additional observations from a re-analysis of the deposited data

How the results depend on the processing

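The 5 members called lower stayed 5 with adjustment over autosomal rows alone. The planned filters on a mean of at least 1, on a 10 Mb window around Pim1 and on pseudogene or argonaute symbols removed no member, and means of at least 10 or 100 (the last added after seeing the data) were applied without a new adjustment and removed no called member, so these filters could not lower the count. At a q threshold of 0.1 there were 7, 6 lower and 1 higher. At a q threshold of 0.01 the count was 2, both lower, and with the statistic taken for a normal deviate it was 0. The 8 pathway genes called became 5 at a q threshold of 0.01, 1 with the normal deviate and 4 with a mean of at least 10. The smaller counts at 0.01 and at a mean of at least 10 follow from fewer genes passing or being tested, and the normal deviate uses the wider errors printed here. The members' median log2 fold change lay between -0.01 and 0.07 under every alternative tried, the upper value after scaling both genotypes to the same sum, an alternative chosen after seeing the data. That scaling shifted all log2 fold changes by 0.07, which left 19 members below 0 and 33 above, and it did not recompute the deposited tests. No paired analysis was possible because the table holds pooled values without replicate numbers, and for the same reason no replicate could be left out. Depth is unknown, so what it limits could not be measured.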

Other observations

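The factor rows outside the rule were as follows. The X-linked Eif2s3x, the main eIF2 gamma subunit gene, was at 29.5 in wild type and 32.5 in knockout, and the X-linked Eif1ax at 135.7 and 140.7, with adjusted p-values of 0.602 and 0.884 in the authors' deposited table. Eif5a2, the relative of Eif5a, stood at 0.352 and 0.362, Eif4e1b, an oocyte relative of Eif4e, at 0.00953 in wild type and 0 in knockout, and the combined row of Eif3j1 and Eif3j2 at 0.0666 and 0.0757, and these were not tested. The remaining eIF2 alpha kinases were at 23.7 and 22.7 (Eif2ak1), 3.23 and 2.74 (Eif2ak3) and 3.62 and 3.19 (Eif2ak4), and none of the 3 was called in the authors' deposited table. At an unadjusted p under 0.05 these 3 kinases gave 0 calls as well. Another Y-linked gene, Ddx3y, was at 2.56 and 0.0103 (q = 0.385, not called). Xist was at 5.21 in wild type and 7.21 in knockout and was called higher (q = 0.0262 in the authors' deposited table).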
